A study of Mus musculus with 18 samples.

Results

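The genes described here make cholesterol, control its synthesis, or export and modify it. The set was fixed by name and holds 34 genes: 18 enzymes of sterol synthesis, 6 genes of the SREBP control system, 6 genes of the LXR and efflux programme, and 4 genes of sterol trafficking, storage and oxysterol formation. Of these, 31 genes had a probe set annotated to that gene alone, out of 18193 genes with such a probe set, and the other 3 genes (Acat2, Nr1h2 and Soat1) were not analysed here. Each gene was read from 1 probe set, the brightest on average over all arrays. All 31 passed the filter on dim probe sets.

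The series profiled mouse immune cells on 18 Affymetrix arrays, 6 labelled 0 h, 6 labelled 1 h and 6 labelled 4 h after treatment with a cell wall extract. The 0 h arrays are the reference group. The design text says that the animals were knockout mice, but no label names the gene, and none gives a genotype, strain, age, route, dose or cell type for any array, so every group may mix genotypes. Each array's label carries a code number. The numbers cluster as 12 to 22, 32 to 37 and 44 to 54, and every cluster, called a code range here because the labels do not say what it stands for, supplies 2 arrays per time. Nothing states that arrays came from separate animals or cultures, so p-values measure the spread between these arrays, which may be technical. In bulk RNA, fewer cells of a type and less RNA per cell cannot be told apart.

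Cells make cholesterol from acetyl-CoA through mevalonate, isoprenoid units, squalene and lanosterol, and a further series of enzymes trims lanosterol to cholesterol. When membrane sterol is low, SCAP escorts the transcription factor SREBP out of the endoplasmic reticulum for cleavage, and the cleaved factor raises synthesis genes. INSIG proteins hold SCAP back when sterol is plentiful. When oxysterols accumulate, LXR receptors instead raise genes that export cholesterol, such as Abca1, Abcg1 and Apoe, and Mylip, which limits uptake. Macrophages express genes of both programmes.

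The labels say only immune cells, so marker lists of several cell types were read on every array. The macrophage list had 12 of 13 genes above the filter, and its mean log2(signal + 16) lay between 12.49 and 13.15 on all 18 arrays. Stromal markers such as collagens, 6 of 8 above the filter, differed between code ranges, while their means at the 3 times lay between 8.595 and 8.886. Their mean was 7.09 ± 0.217 (SD, n = 6) on codes 12 to 22, 8.81 ± 0.242 on codes 32 to 37 and 10.26 ± 0.181 on codes 44 to 54. Neutrophil markers, 7 of 12 above the filter, ran the other way, at 8.92 ± 0.225, 8.41 ± 0.324 and 7.32 ± 0.320. T cell markers had 1 of 8 genes above the filter and NK cell markers 2 of 6. Between 0 h and 4 h, B cell markers (2 of 6 above the filter) went from 7.35 ± 0.419 to 6.57 ± 0.397, with Cd79b lower on the deposited scale, and dendritic cell markers (3 of 7) from 6.24 ± 0.296 to 7.08 ± 0.442, with Itgax higher. Neutrophil markers went from 7.93 ± 0.81 to 8.40 ± 0.771, and in each code range both 4 h arrays were above both 0 h arrays. The macrophage mean was 12.72 ± 0.223 at 0 h and 13.01 ± 0.122 at 4 h, and Cd14, Msr1 and Marco rose and Cd163 fell. The part of these cells in the results below was not tested.

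The upstream sequences of 4 synthesis genes are shown because they bear the same promoter box although the genes moved in opposite directions at 4 h on the deposited scale: Hmgcs1 and Cyp51 rose, and Nsdhl and Ebp fell. The falls were called on the deposited scale but not with arrays centred on their medians (adjusted p = 0.089 and 0.23). Each line gives the 250 bases before the RefSeq start site (GRCm38.p6), read 5′ to 3′ on the gene's strand. Capitals mark every match, on either strand, to the NF-Y box CCAAT and the SRE-like motif TCACNCCAC.
Hmgcs1 (chr13:119690101-119690350, plus strand): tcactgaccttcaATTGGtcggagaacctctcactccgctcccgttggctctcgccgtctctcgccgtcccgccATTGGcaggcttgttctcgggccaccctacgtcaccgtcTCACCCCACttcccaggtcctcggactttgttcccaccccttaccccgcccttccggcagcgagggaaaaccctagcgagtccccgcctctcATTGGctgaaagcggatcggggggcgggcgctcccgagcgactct
Cyp51 (chr5:4104698-4104947, minus strand): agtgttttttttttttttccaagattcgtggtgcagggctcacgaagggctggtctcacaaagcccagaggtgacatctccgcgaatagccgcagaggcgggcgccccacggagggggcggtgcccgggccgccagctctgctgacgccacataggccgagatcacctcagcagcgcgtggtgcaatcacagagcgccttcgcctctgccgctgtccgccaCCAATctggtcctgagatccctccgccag
Nsdhl (chrX:72918271-72918520, plus strand): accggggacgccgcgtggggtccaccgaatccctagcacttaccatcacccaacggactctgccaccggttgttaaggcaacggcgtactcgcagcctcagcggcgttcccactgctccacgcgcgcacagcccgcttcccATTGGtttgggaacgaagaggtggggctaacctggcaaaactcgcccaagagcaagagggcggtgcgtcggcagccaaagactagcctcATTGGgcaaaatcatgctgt
Ebp (chrX:8193513-8193762, minus strand): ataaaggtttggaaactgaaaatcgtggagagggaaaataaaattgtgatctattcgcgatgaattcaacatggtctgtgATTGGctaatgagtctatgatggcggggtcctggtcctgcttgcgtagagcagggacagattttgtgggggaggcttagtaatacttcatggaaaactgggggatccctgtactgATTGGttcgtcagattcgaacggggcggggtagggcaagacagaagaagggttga

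The promoter table held 28 of the 34 genes, and windows of 300 bases, from 250 before to 50 after each start site, were searched on both strands. The CCAAT box stood in a window of 14 of the 15 synthesis genes in the table, of 4 of 5 SREBP control genes and of 1 of 5 LXR and efflux genes (Mylip). Over the whole table it stood in 37.4% of 32851 windows and in 41.1% of 27025 genes, a gene counting if any of its windows held a match. The SRE-like motif was found in 1 of the 28 genes, Hmgcs1, 137 bases before the start site, and in 1.44% of all genes. The E-box CACGTG stood in 6 of 28 genes and 8.09% of all genes, and the nuclear receptor motif AGGTCA in 3 of 28 genes and 18.1% of all genes. An exact direct repeat of AGGTCA with 4 bases between the copies was in none of the 28 genes and in 0.015% of all genes. These matches are letters in a window and do not show binding. Only the letters given were searched, so a missing match does not show that a looser form of the motif is absent.

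The first comparison asked what changed within 1 h of the extract. No sterol gene passed an adjusted p of 0.05 in either direction in limma's moderated test, while 0.613% of the 25775 probe sets tested were called higher and 0.14% lower. Among the 31 genes, 1 had an unadjusted p under 0.05, Ch25h, which encodes the hydroxylase that turns cholesterol into an oxysterol. Its signal was 107 to 429 (median 322) at 0 h and 454 to 1278 (median 626) at 1 h. Every 1 h array lay above every 0 h array, yet the log2 difference of 1.38 ± 0.52 had an adjusted p of 0.46. The 17 synthesis enzymes had log2 differences between -0.30 and 0.14 at 1 h, with a median of -0.04, beside a median of -0.04 over all probe sets.

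At 4 h, calls ran in both directions within the synthesis pathway. On the deposited scale Hmgcs1, Cyp51, Insig1 and Ch25h rose, and Mvk, Nsdhl, Ebp, Dhcr7, Abcg1 and Mylip fell. The 4 genes called higher are 12.9% of the 31, where 9.95% of all probe sets were called higher. The 6 called lower are 19.4%, where 23.1% of all probe sets were called lower. As deposited and without a block, the counts for the set are thus near the background, and the values of single genes carry what follows. The median log2 change was -0.01 over the 31 genes and -0.22 over all probe sets, so an average probe set was dimmer at 4 h on the deposited scale.

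The scaling moves this split. The deposited values give all arrays the same trimmed mean of 500, while array medians ranged from 89.8 to 105.4 at 0 h and from 74.7 to 87.5 at 4 h. With each array centred on its median, the median change over all probe sets became 0.04. Of the 31 genes, 10 (32.3%) were then called higher beside 16.3% of all probe sets, and 2 (6.45%) lower beside 10.4%. Quantile normalization called 8 genes (25.8%) higher beside 12.3% and 4 (12.9%) lower beside 15%. Hmgcs1, Cyp51, Insig1 and Ch25h were called higher, and Dhcr7 and Mylip lower, under all 3 scalings. Fitting the code range as a blocking term called 8 genes (25.8%) higher beside 12.6% of all probe sets, and 9 (29.0%) lower beside 30.3%. In each of these alternative fits the share of the set called higher was above that of all probe sets, a difference that was not tested. Fits that leave out 1 array called 3 to 8 genes higher, with no share of all probe sets computed beside them. The 8 came without the 4 h array of code 22, Idi1, Sqle, Hsd17b7 and Srebf2 being added. Only 3 genes were called higher without code 18, 32 or 35 at 0 h or 16, 34, 37, 46 or 49 at 4 h.

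**Figure D1:**
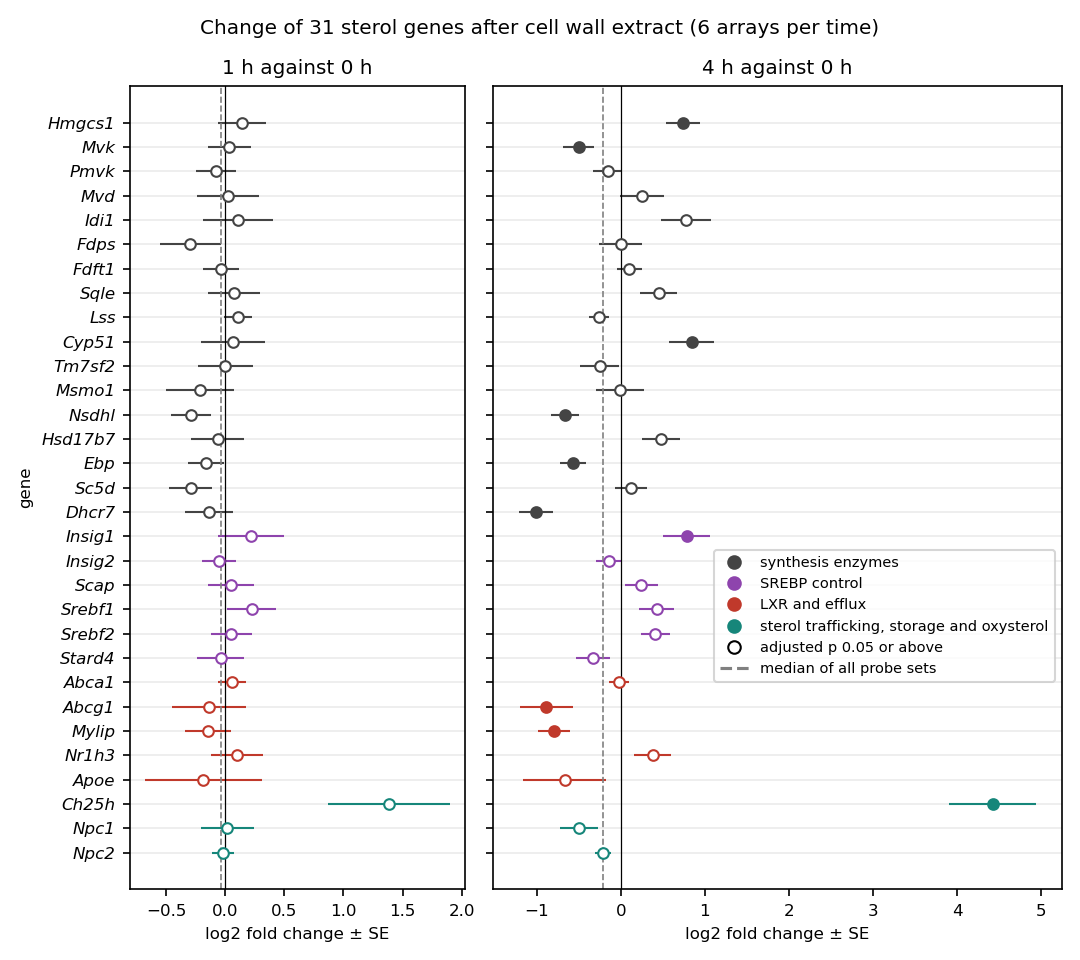
Log2 fold change ± SE (x axis) of each of the 31 genes (y axis, in pathway order) at 1 h (left) and 4 h (right) against 0 h, with 6 arrays per time. Filled points had an adjusted p below 0.05, colours mark the gene groups and the dashed line is the median of all probe sets. No point is filled at 1 h, and at 4 h 4 filled points lie to the right of 0 and 6 to the left, with Ch25h at 4.42.

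Among the early steps, Hmgcs1, which makes the precursor of mevalonate, rose. Its signal was 1912 to 4005 (median 2585) at 0 h, 2348 to 4552 (median 2646) at 1 h and 3464 to 5786 (median 4267) at 4 h. The 4 h arrays were mostly the high ones but overlapped the 0 h arrays, where code 44 reached 4005. The log2 change at 4 h was 0.73 ± 0.20 (adjusted p = 0.0096). Of the 4 further Hmgcs1 probe sets, 2 were also called higher, at 0.75 and 0.67, and the 2 dimmest, at 0.54 and 0.38, were not.

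Mvk, the kinase that phosphorylates mevalonate, fell at 4 h. It read 162 to 297 (median 232) at 0 h, 189 to 279 (median 223) at 1 h and 109 to 237 (median 157) at 4 h, with overlapping groups. The change of -0.50 ± 0.18 passed only narrowly (adjusted p = 0.042) and, with arrays centred on their medians, became -0.25 with an adjusted p of 0.37. The call was also lost without any 1 of codes 32, 35, 44 and 47 at 0 h or 16, 22, 46 and 49 at 4 h, with changes between -0.52 and -0.41. A second, dimmer Mvk probe set differed by -0.31 ± 0.41 and was not called (adjusted p = 0.61). The mean of the gene's probe sets was not called either. The next enzymes on the way to isoprenoids, Pmvk and Mvd, differed by -0.16 ± 0.17 and 0.25 ± 0.26 and were not called.

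Idi1, the isomerase that makes the reactive isoprenoid unit, read 489 to 1039 (median 699.8) at 0 h and 722 to 1985 (median 1326) at 4 h. Its change of 0.77 ± 0.30 just missed the threshold (adjusted p = 0.054), and a second Idi1 probe set was called, at 0.72 ± 0.23 (adjusted p = 0.021). With the block for code range the first probe set was called too (adjusted p = 0.0044), as it was without any 1 of codes 44, 20, 51, 54 and 22.

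Fdps, which joins the units to farnesyl diphosphate, and Fdft1, which makes squalene, stayed near 0 at 0.00 ± 0.26 and 0.10 ± 0.15. Sqle, the epoxidase that commits squalene to sterols, read 595 to 1026 (median 792) at 0 h and 665 to 1514 (median 1156) at 4 h. Its difference of 0.45 ± 0.22 was not called on the deposited scale (adjusted p = 0.12) but was with arrays centred on their medians (adjusted p = 0.021) and without code 22 (0.60, adjusted p = 0.036). Lss, which closes the ring to give lanosterol, differed by -0.26 ± 0.12 with no call, while a dimmer Lss probe set fell by 0.95 (adjusted p = 0.0024), so its probe sets disagree on the call.

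Cyp51, the demethylase that takes the first step from lanosterol, had the greatest rise of the synthesis enzymes called. It read 415 to 790.4 (median 505) at 0 h, 389 to 1049 (median 507) at 1 h and 482 to 1319 (median 1139) at 4 h. At 4 h the array of code 22, at 482, lay within the 0 h range, and the other 5, from 1025 up, were above every 0 h array. The log2 change was 0.84 ± 0.27 (adjusted p = 0.022) over all arrays and 1.05 without code 22. Without code 46 it was 0.77 and the call was lost (adjusted p = 0.051). A second, dimmer Cyp51 probe set differed by 0.47 ± 0.21 and was not called (adjusted p = 0.10), so its probe sets disagree on the call.

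Of the later enzymes, Nsdhl, Ebp and Dhcr7 fell on the deposited scale, and Dhcr7 also with arrays centred on their medians. Nsdhl, a dehydrogenase of the demethylation complex, had signals of 942 to 1222 (median 1075) at 0 h, 689 to 1069 (median 895) at 1 h and 389 to 846 (median 727) at 4 h. All 4 h arrays were lower than all 0 h arrays, and the gene fell by 0.66 on the log2 scale (SE 0.17, adjusted p = 0.0057). With arrays centred on their medians the value was -0.41, with an adjusted p of 0.089, which is not a call.

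Ebp, the isomerase that shifts the ring double bond, read 1405 to 2533 (median 1803) at 0 h, 1503 to 2083 (median 1616) at 1 h and 1017 to 1536 (median 1291) at 4 h. The highest 4 h arrays overlapped the lowest 0 h arrays. It fell by 0.57 (SE 0.15, adjusted p = 0.0073), and centring on array medians gave -0.32 with an adjusted p of 0.23, again no call.

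Dhcr7, which makes cholesterol in the last step of one branch, showed the greatest fall of the synthesis enzymes. Its signal was 288 to 371 (median 298) at 0 h and 104 to 181 (median 161) at 4 h, with no overlap. At 1 h it was 176 to 405 (median 303), and the 2 low arrays, at 176 and 189.7, were those of codes 33 and 36. It fell by 1.01 (SE 0.20, adjusted p = 8.68e-04) and by 0.76 with arrays centred on their medians.

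The remaining late enzymes did not pass the test. Msmo1, the methyl oxidase, differed by -0.01 ± 0.29, Tm7sf2, a sterol reductase, by -0.25 ± 0.23, and Sc5d, the desaturase before the last step, by 0.12 ± 0.19. Hsd17b7, the ketoreductase of the demethylation complex, differed by 0.48 ± 0.22 (adjusted p = 0.11) and was called with the block (adjusted p = 0.018) and without code 22 (0.61, adjusted p = 0.040). Over the 17 enzymes, 2 rose and 4 fell on the deposited scale, 4 rose and 3 fell after quantile normalization, and 5 rose and 1 fell with arrays centred on their medians. The shares of all probe sets called higher and lower were 9.95% and 23.1% as deposited, 12.3% and 15% after quantile normalization and 16.3% and 10.4% after centring, and as deposited the enzymes' counts are near them. Their median change was 0.00 as deposited.

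**Figure D2:**
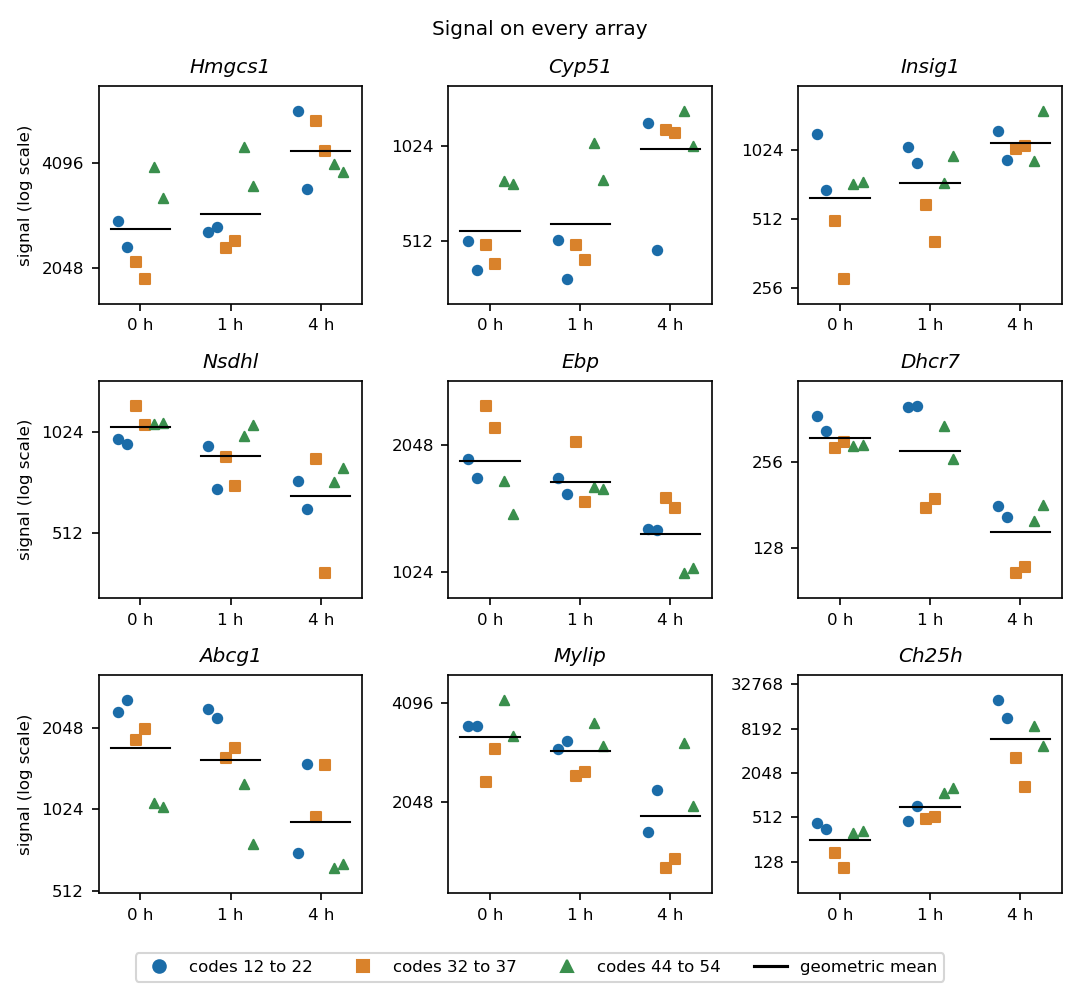
Signal (y axis, log scale) on each of the 18 arrays by time for 9 genes, with the code range of each array as colour and shape and the geometric mean of 6 arrays as a bar. Dhcr7, Nsdhl and Ch25h do not overlap between 0 h and 4 h, and 1 array of Cyp51 at 4 h, of code 22, lies among the 0 h values. The share of all probe sets without such overlap was not computed.

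In the SREBP control group, Insig1, whose protein retains SCAP and is itself a target of SREBP, rose. Its signal was 282 to 1209.9 (median 708) at 0 h, 407 to 1052 (median 818) at 1 h and 921 to 1515 (median 1053) at 4 h. The 0 h arrays spread widely, from 282 on code 35 to 1209.9 on code 12, and overlapped the 4 h arrays. The change was 0.78 ± 0.28 (adjusted p = 0.04) and lost its call in 8 of 27 alternative settings. These were the fit without a filter and the fits without code 18, 32 or 35 at 0 h and 16, 34, 37 or 49 at 4 h, which gave changes between 0.56 and 0.81.

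The transcription factor genes Srebf1 and Srebf2 read 639 to 1167 (median 831) and 465 to 684 (median 554) at 0 h and 876 to 1943 (median 1071) and 576 to 1223 (median 696) at 4 h. Their differences of 0.42 ± 0.21 and 0.41 ± 0.17 were not called (adjusted p = 0.13 and 0.079). Both were called with the block and with arrays centred on their medians, and Srebf2 also without code 22 (0.49). A second, slightly dimmer Srebf2 probe set rose by 1.14 ± 0.19 (adjusted p = 1.92e-04), so the Srebf2 probe sets differ in size and in call.

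Insig2, the second retention gene, and Scap differed by -0.15 ± 0.14 and 0.24 ± 0.20. Stard4, a carrier of cholesterol within the cell, differed by -0.33 ± 0.20. None of these 3 was called. The median change over the 6 genes was 0.33 and 1 of them was called higher, where 9.95% of all probe sets were called higher.

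In the LXR and efflux group the calls on the deposited scale were all downward. Abcg1, the transporter that passes cholesterol to HDL, read 1047 to 2591 (median 1942) at 0 h, 766 to 2401 (median 1657) at 1 h and 624 to 1501 (median 832) at 4 h. The groups overlapped, and the lowest 0 h arrays were those of codes 44 and 47, at 1085 and 1047. It fell by 0.89 (SE 0.31, adjusted p = 0.036), and a second probe set fell by 0.86 (adjusted p = 0.040). The call was lost in 11 of 27 alternative settings, among them quantile normalization and median centring. Centring gave -0.63 (adjusted p = 0.19). Also among them was leaving out code 12, 18, 32 or 35 at 0 h or 16, 34, 46 or 49 at 4 h, where the change lay between -0.90 and -0.77. With the block the adjusted p was 0.0011.

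Mylip, the ubiquitin ligase that marks lipoprotein receptors for destruction, fell under every alternative tried. Its signal was 2352 to 4176 (median 3365) at 0 h, 2455 to 3549.5 (median 3000.3) at 1 h and 1298 to 3096 (median 1828) at 4 h. The highest 4 h array, code 46, lay among the 0 h arrays, and the others were below all of them. The gene fell by 0.80 (SE 0.19, adjusted p = 0.004).

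Abca1, the transporter that loads lipid-poor apolipoproteins, was bright at every time, with signals of 12791 to 15444 (median 13652) at 0 h and 11464 to 16295 (median 13773) at 4 h. Its difference was -0.02 ± 0.12, with overlapping groups. The 2 dimmer Abca1 probe sets gave -0.75 ± 0.44 and -0.83 ± 0.51, also without a call, so the brightest probe set sets the value near 0.

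Apoe, the apolipoprotein that carries exported cholesterol, was 11743 to 34543 (median 23358) at 0 h and 4365 to 30659.6 (median 16726) at 4 h. Its difference of -0.67 ± 0.49 was not called (adjusted p = 0.31). With the block the SE shrank to 0.15 and the adjusted p was 0.002. Nr1h3, which encodes an LXR receptor, differed by 0.38 ± 0.22 and was called higher only with arrays centred on their medians (adjusted p = 0.047) and after quantile normalization. Of the 5 genes none rose and 2 fell as deposited, where 23.1% of all probe sets were called lower. Their median was -0.67 beside -0.22 over all probe sets. That median is the value of Apoe, which was not called, and the genes ranged from -0.89 to 0.38.

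Ch25h stood apart from the rest in size. At 4 h it was 1332 to 19903 (median 6748), above every 0 h and 1 h array, and the array of code 37 was the lowest. The log2 change was 4.42 ± 0.52 against 0 h (adjusted p = 5.37e-06) and 3.04 ± 0.52 against 1 h (adjusted p = 3.51e-04). Npc1 and Npc2, which hand cholesterol out of the lysosome, differed by -0.50 ± 0.22 and -0.21 ± 0.09. Neither was called on the deposited scale, and both were with the block (adjusted p = 0.016 and 0.042). Without code 32 at 0 h, Npc1 was called at -0.61.

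The synthesis and efflux genes were set against each other on every array, as the mean log2(signal + 16) of the 17 synthesis enzymes minus that of the 5 LXR and efflux genes. Probe brightness differs between genes, so only changes in this difference can be read. It was -2.65 to -2.14 on the 0 h arrays, -2.63 to -1.98 on the 1 h arrays and -2.48 to -1.43 on the 4 h arrays. The lowest 4 h value, -2.48, belonged to code 22, and the other 5 lay between -2.05 and -1.43. On codes 12 to 22 the difference was -2.40 and -2.65 at 0 h and -1.705 and -2.48 at 4 h. On codes 32 to 37 it was -2.14 and -2.28, then -1.43 and -1.74. On codes 44 to 54 it was -2.23 and -2.19, then -1.98 and -2.05, like the -2.03 and -1.98 at 1 h. In the other ranges both 4 h arrays were above both 1 h arrays. The synthesis mean was 9.37 ± 0.158 (SD, n = 6) at 0 h and 9.38 ± 0.216 at 4 h. The efflux mean was 11.68 ± 0.0976 at 0 h and 11.28 ± 0.232 at 4 h. As deposited, all 4 h arrays, at 11.51 or less, were below all 0 h arrays, at 11.57 or more. The array medians did not overlap between these times either (74.7 to 87.5 at 4 h, 89.8 to 105.4 at 0 h). Whether the efflux means still separate after centring was not computed. On the deposited scale the shift lay in the efflux mean. Centring arrays on their medians leaves the difference on each array as it is but divides the shift otherwise, with a median change of 0.26 for synthesis enzymes and -0.41 for efflux genes. No p is given because the genes were chosen with results known.

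**Figure D3:**
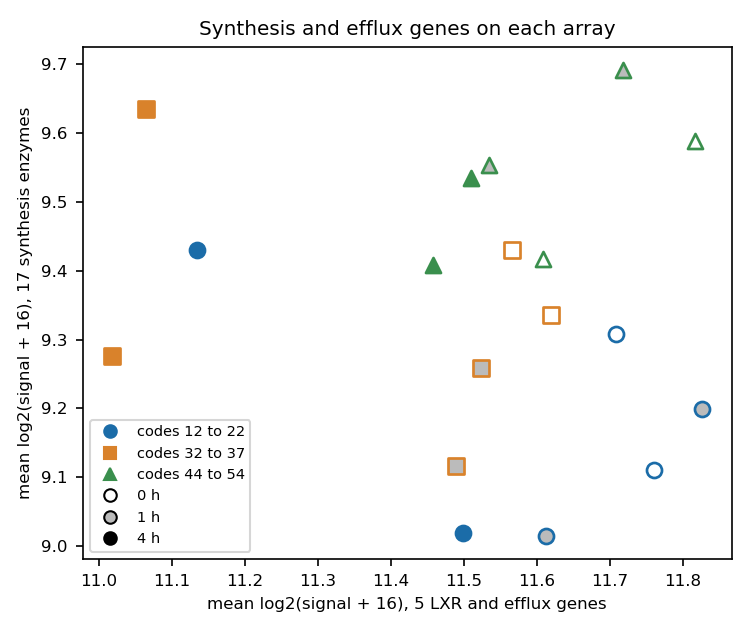
Mean log2(signal + 16) of the 17 synthesis enzymes (y axis) against that of the 5 LXR and efflux genes (x axis) on each array, with shape and colour for the code range and fill for the time. On the deposited scale shown, the 4 h arrays lie to the left, at efflux means from 11.02 to 11.51. The 0 h arrays lie at 11.57 to 11.82, and the heights at these times overlap.

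The 4 h arrays were also compared with the 1 h arrays, which share the 4 h group with the comparison above. Hmgcs1 (0.59), Cyp51 (0.78) and Ch25h were called higher, 9.68% of the 31 genes, beside 7.71% of all probe sets. Mvk (-0.53), Lss (-0.37), Dhcr7 (-0.88) and Mylip (-0.65) were called lower, 12.9% of the genes beside 16.7% of all probe sets. Values in parentheses are log2 differences. Both shares are near their background on the deposited scale. With arrays centred on their medians 8 genes were higher beside 13.4% of all probe sets and 1 lower, Dhcr7, beside 7.36%, and Mvk, Lss and Mylip lost their calls (adjusted p = 0.30, 0.49 and 0.14). Quantile normalization called 4 higher beside 9.32%, without Hmgcs1, and 2 lower, Mylip and Dhcr7, beside 10.5%. The block called 6 higher beside 10.6% and 8 lower beside 23.4%. Without any 1 of codes 14, 20, 33 and 36 at 1 h or 16, 34, 37 and 46 at 4 h, 1 gene was called higher, and without code 22, 5 were. Without code 51 at 1 h or 16 or 49 at 4 h, 2 genes were called lower.

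Because each code range holds 2 arrays per time, the change at 4 h was also estimated within each range. The values below run in the order codes 12 to 22, 32 to 37 and 44 to 54. Ch25h differed by 5.22, 3.80 and 4.26, and Dhcr7 by -0.97, -1.34 and -0.73, with the sign of the pooled value in each. Mylip differed by -0.85, -0.98 and -0.56, Nsdhl by -0.52, -0.97 and -0.50, and Idi1 by 0.77, 0.78 and 0.77.

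Estimates lay further apart for other genes. Hmgcs1 differed by 0.79, 1.27 and 0.13, and Insig1 by 0.24, 1.44 and 0.67. Apoe differed by -0.49, -1.21 and -0.32, and Tm7sf2 by 0.30, -0.89 and -0.16. A test of whether the 4 h change differed between ranges called none of the 31 genes, where 0.838% of all probe sets were called, and the lowest adjusted p was 0.17, for Tm7sf2. At an unadjusted p under 0.05 there were 4, Tm7sf2, Hmgcs1, Apoe and Npc1. No share of all probe sets at that unadjusted level is given here, so this count cannot be set against a background.

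Levels also differed between code ranges with time as a covariate. On codes 44 to 54 against 12 to 22, the synthesis enzymes Idi1 (0.98), Msmo1 (0.92), Cyp51 (0.78), Hsd17b7 (0.69) and Sc5d (0.53) were higher, as were Apoe (0.61) and Stard4 (0.52). These 7 genes are 22.6% of the 31, beside 10.5% of all probe sets. Abcg1 (-1.03), Scap (-0.48) and Srebf1 (-0.47) were lower, 9.68% beside 8.69% of all probe sets. None of the 17 synthesis enzymes was called lower. The 3 lower genes became 1 without any 1 of codes 12, 47, 14, 54, 16 and 49.

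On codes 32 to 37 against 12 to 22, Mvd (0.76), Mvk (0.53) and Nr1h3 (0.67) were higher, 9.68% of the genes beside 9.67% of all probe sets. A larger share, 9 genes or 29.0%, was lower, beside 8.13% of all probe sets: Ch25h (-1.48), Apoe (-1.33), Insig1 (-0.75), Npc1 (-0.67), Dhcr7 (-0.64), Tm7sf2 (-0.58), Srebf1 (-0.55), Scap (-0.47) and Mylip (-0.40). These 9 became 5 without code 12, 33 or 34, and the 3 higher genes became 5 without code 36. The third comparison shares arrays with both. In it codes 44 to 54 against 32 to 37 were higher for 6 genes, Apoe (1.95), Ch25h (1.33), Msmo1 (0.60), Mylip (0.59), Npc1 (0.49) and Dhcr7 (0.42), beside 8.9% of all probe sets. Abcg1 (-0.83) and Ebp (-0.43) were lower, beside 8.26%. The 6 higher genes became 3 without code 33, 36 or 51 and 10 without code 16 or 34.

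Apoe, the gene with the lowest adjusted p between ranges, is given in full. Its signal was 15275 to 24873 (median 21134) on codes 12 to 22, 4365 to 11861 (median 9007) on codes 32 to 37 and 24471 to 34543 (median 32520.0) on codes 44 to 54. Arrays of codes 32 to 37 were below all others at every time. Abcg1 took a different order, with 707 to 2591 (median 2283), 958 to 2036 (median 1657) and 624 to 1271 (median 907), and codes 44 to 54 low. Msmo1, at 1111 to 2017 (median 1501), 1259.6 to 2902 (median 1835) and 2391 to 3403 (median 2900.3), was high on codes 44 to 54, the range in which the stromal markers were also highest and the neutrophil markers lowest. Whether those cells carry part of the difference was not tested.

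**Figure D4:**
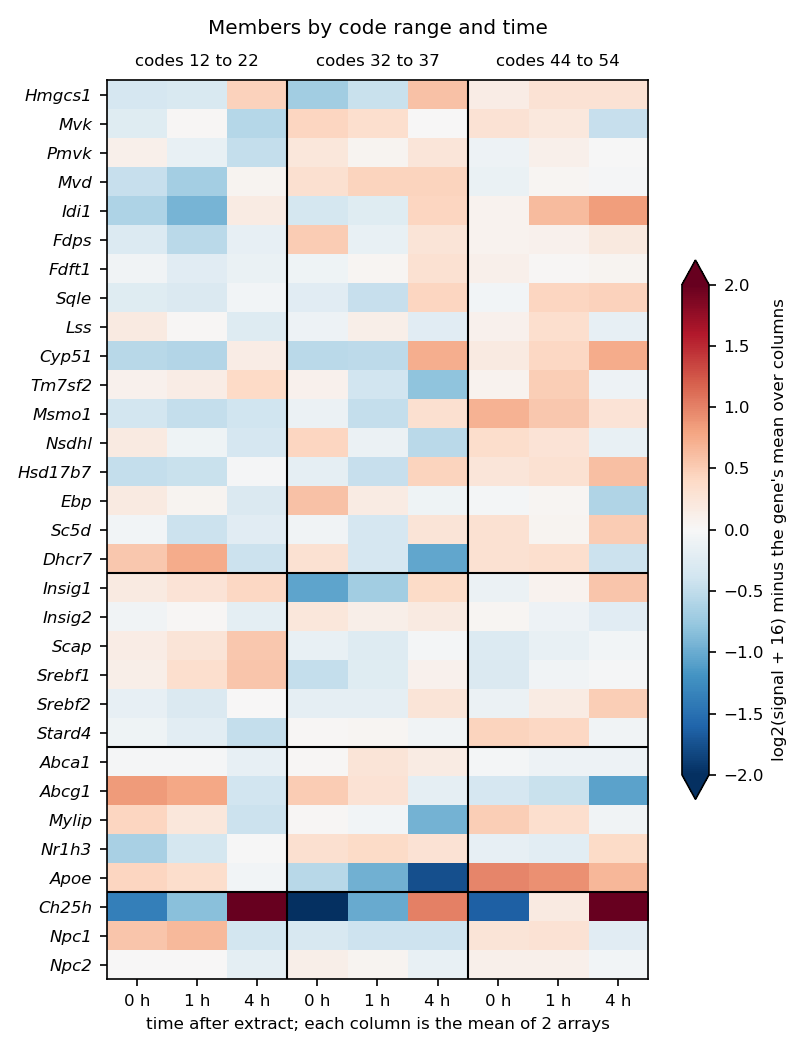
Log2(signal + 16) of each gene minus its mean over the 9 columns (colour), by code range and time, each column the mean of 2 arrays, with lines between gene groups and the colour scale ending at -2 and 2. Ch25h darkens to red at 4 h in each range, Dhcr7 turns blue at 4 h in each, and Apoe is at or below its mean in all columns of codes 32 to 37.

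Other genes of these pathways were read from lists of further genes. Of 12 listed genes for further synthesis steps and SREBP processing, 8 were measured and none was called at 4 h against 0 h. Among all probe sets, 9.95% were called higher and 23.1% lower in this comparison. The 2 brightest of the 8 were Lbr (-0.25 ± 0.31), a sterol reductase of the nuclear envelope, and Rnf139 (0.04 ± 0.13), a ubiquitin ligase. None of the 12 fatty acid genes of the SREBP programme rose and 7 fell, with a median of -0.38, and 4 fell with arrays centred on their medians. Of all probe sets, 23.1% were called lower as deposited and 10.4% after centring. The desaturase Scd2 lay between 811 and 1605 at 0 h and between 262 and 744 at 4 h (-1.42, adjusted p = 1.93e-04). Fads1, which desaturates polyunsaturated fatty acids, lay between 2516 and 3008 at 0 h and between 854 and 1550.1 at 4 h (-1.17). Elovl6, an elongase, and Mid1ip1, an activator of acetyl-CoA carboxylase, changed by -1.01 and -0.87.

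Among 9 measured of 13 further LXR partners and targets, none rose and 5 fell, beside 23.1% of all probe sets called lower, or 3 with arrays centred on their medians, beside 10.4%. Mertk, a receptor for apoptotic cells, lay between 1038 and 2051 at 0 h and between 82.9 and 470.1 at 4 h (-2.70 ± 0.34, adjusted p = 1.24e-05), without overlap. The RXR partners of LXR, Rxra and Rxrb, changed by -1.14 ± 0.32 and -0.60 ± 0.20, and Smpdl3a, a phosphodiesterase, by -0.83 ± 0.14. Of 13 further genes of sterol storage, transport and oxysterol metabolism, none rose and 5 fell, or 2 after centring, to be read beside the same 23.1% and 10.4%. Gpr183, the receptor for oxysterols made downstream of Ch25h, lay between 1165 and 2527 at 0 h and between 136 and 259.9 at 4 h (-3.32 ± 0.29, adjusted p = 2.31e-07). Cyp27a1, a sterol hydroxylase, lay between 652 and 1229 at 0 h and between 109.8 and 320.3 at 4 h (-1.99), also without overlap. Nceh1, a cholesteryl ester hydrolase, and Plin2, a lipid droplet coat gene, changed by -0.66 and -0.63, with overlapping groups. The median change over all probe sets was -0.22 in this comparison, and these lists were written with earlier results known. How many of all probe sets also lacked overlap was not computed.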

How the data were processed

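Per the submitters' processing notes, the arrays were processed with MAS5 in GCOS, and no further step or version is given in the sources used here. The deposited values are linear signal intensities per probe set with a trimmed mean of 500 on every array. Of 45101 probe sets, 64 were controls and left out. The value log2(signal + 16) was used, so that folds of dim genes are understated. A probe set was tested if its signal was above its array's median on at least 4 of 18 arrays (25775 kept). Linear models were fitted in R 4.3.3 with limma 3.58.1 over all 18 arrays, 1 mean per time, with Benjamini-Hochberg adjustment over all tested probe sets and a threshold of 0.05. Code ranges were compared with time as a covariate. Within-range values and the test of differences between ranges came from a fit of 9 means.

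Genes were named from platform annotation with a single symbol (34945 probe sets), and upstream sequences came from a RefSeq table. The rule named every gene of the set and, of each further list, up to 4 called genes with the greatest change at 4 h, or the 2 brightest where none was called. Further probe sets of a gene were given where they bear on its call. Overlap of time groups was not counted over all probe sets, so a lack of overlap stands without a background. The probe sets used for Hmgcs1, Fdft1, Hsd17b7 and Lss are of types that may also bind related transcripts, by their suffix. Pairs of arrays correlated at 0.902 to 0.959. The number of arrays limits the precision. The members and lists were chosen with earlier results of these data known. The alternatives were other pseudocounts, filters, scalings, variance trends, a code range block and leaving out each array. The fit was tested on simulated data.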

Additional observations from a re-analysis of the deposited data

Results flagged for a closer look

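The array of code 22 at 4 h lay far below the other 4 h arrays for Cyp51, at 482 against 1025 to 1319. Its gap to the nearest array was 0.748 of the range of the 6 arrays, above Dixon's critical value for 6 arrays. This was 1 of 93 gene and time groups examined, and chance alone flags about 1 in 20.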

How the results depend on the processing

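The 27 alternatives, 18 of which leave out 1 array, gave 4929 values for single genes. None reversed a called change, 185 lost a call and 103 gained one, and 126 changed the sign of a value that was not called. Hmgcs1, Dhcr7, Mylip and Ch25h kept their call at 4 h against 0 h under every alternative.

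The counts of genes called at 4 h against 0 h were 4 higher and 6 lower. They became 8 higher after quantile normalization, 10 higher and 2 lower with arrays centred on their medians and 8 higher with the code range as a block. Leaving out 1 array gave 3 to 8 higher and 4 to 6 lower. No share of all probe sets was computed for fits that leave out 1 array, change the filter or add a variance trend. Their counts, here and below, stand without a background. At 4 h against 1 h (3 higher, 4 lower), the fit without a filter gave 1 and 2, centring 8 and 1, the block 6 and 8, quantile normalization 2 lower, and leaving out 1 array 1 to 5 higher and 2 to 5 lower.

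The median change of the synthesis enzymes at 4 h against 0 h was 0.00, with -0.11 to 0.17 when 1 array was left out and 0.26 after centring. For the LXR and efflux genes it was -0.67, with -0.84 to -0.35 and -0.41. Against 1 h the centred medians were 0.44 and -0.25, the efflux median ran from -0.69 to -0.16 with 1 array left out, and at 1 h against 0 h it ran from -0.17 to 0.061.

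Between code ranges, the fit without a filter called 1 gene lower on 44 to 54 against 12 to 22 (3 in the report, 1 to 3 with 1 array left out), and 4 lower on 32 to 37 against 12 to 22 (9, and 5 to 9), where the higher count ran from 3 to 5. On 44 to 54 against 32 to 37, 6 genes were higher, but 3 without a filter or after centring, 10 with a variance trend and 3 to 10 with 1 array left out. Centring shifts all values of an array together, and the fit without a filter adjusts over more probe sets; the cause of the other changes was not tested. The labels give no replicate numbers shared between times and do not say that neighbouring codes form sets, so single arrays were not paired and the code range served as the block.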
